A study of Mus musculus with 12 samples.

Results

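Mammalian cells remove hydrogen peroxide (H2O2) and lipid peroxides with glutathione peroxidases and with thioredoxin-fed peroxidases, and both routes are described here for 10 mouse genes in proximal tubule (PT) cells with and without the type II TGF-β receptor (TβRII). The genes were listed by symbol: the glutathione peroxidases Gpx1, Gpx2, Gpx3, Gpx4, Gpx7 and Gpx8, glutathione reductase (Gsr), glutathione synthetase (Gss), and the thioredoxins Txn1 and Txn2. They are 10 of the 25514 genes in the count data, and 8 of them had counts. Libraries came from 4 groups with 3 in each: untreated TβRII flox/flox PT cells (genotype H2ts6;Tgfbr2fl/fl), untreated TβRII-/- PT cells (H2ts6;Tgfbr2-/-), and each genotype after 24 h of H2O2 in serum-free medium. All were conditionally immortalized PT cells from kidneys of male mice of the Immorto-mouse background, whose temperature-sensitive T antigen allows division, grown at 33 °C with interferon-γ and moved to 37 °C 5 days before the experiment. TβRII-/- PT cells were made in culture by treating floxed cells with adenovirus carrying Cre, so the genotypes are 2 cell lines, and an effect of the deletion and a difference between lines cannot be told apart. Untreated cells stayed in complete medium with serum and selenium, H2O2 was given in serum-free medium, and the study's methods add serum starvation before it, so H2O2 and the change of medium cannot be told apart. The dose of H2O2 is given as 200 μM in the study's methods and as 200 mM in the sample labels. Nothing in the labels says that the libraries of a group were separate cultures. The study's methods give a general minimum of 3 biological replicates or independent experiments for in vitro work unless stated otherwise, without naming these libraries. The p-values measure the spread between these libraries, which may be technical.

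Glutathione is a small thiol that glutathione peroxidases use to reduce peroxides, and glutathione reductase returns the oxidized form to glutathione with electrons from NADPH. Gss performs the last step of glutathione synthesis. Thioredoxins are small proteins with a pair of reactive cysteines that reduce peroxiredoxins and other proteins, Txn1 in the cytosol and nucleus and Txn2 in mitochondria, and thioredoxin reductases recharge them from NADPH. In the kidney, proximal tubule cells are the known source of the Gpx3 that circulates in plasma.

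The reactive residue of the peroxidases differs within the family, and the coding sequence around it is shown for the 6 peroxidases because it separates the selenium-dependent members from the others. Sequences are from GENCODE M39 transcripts on the coding strand, from 5′ to 3′, and the capitals mark the codon of the reactive residue, which is TGA read as selenocysteine in the first 4 and a cysteine codon in Gpx7 and Gpx8.
Gpx1: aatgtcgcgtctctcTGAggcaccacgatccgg
Gpx2: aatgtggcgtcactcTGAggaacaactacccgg
Gpx3: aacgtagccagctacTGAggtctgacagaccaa
Gpx4: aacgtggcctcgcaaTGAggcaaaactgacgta
Gpx7: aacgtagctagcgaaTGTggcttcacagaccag
Gpx8: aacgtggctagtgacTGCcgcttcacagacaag

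The capitals lie at codon 47 of Gpx1 in exon 1 of 2, codon 40 of Gpx2 in exon 1 of 2, codon 73 of Gpx3 in exon 2 of 5, codon 129 of Gpx4 in exon 3 of 7, codon 56 of Gpx7 in exon 2 of 3, and codon 79 of Gpx8 in exon 2 of 3. All 4 TGA codons stand where the annotation places a selenocysteine. Codon 129 of Gpx4 is its number in the most-counted transcript, Gpx4-201, with 759 coding bases and 48688 counts in all libraries together. Gpx4-202 had nearly as many counts (48612), and the codon number in other Gpx4 transcripts is not given here. The thioredoxins share the order cysteine, glycine, proline, cysteine at their active site, shown with both cysteine codons in capitals.
Txn1: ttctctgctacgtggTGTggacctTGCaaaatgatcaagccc
Txn2: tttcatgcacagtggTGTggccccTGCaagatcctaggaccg

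The cysteines are residues 32 and 35 of Txn1, in exon 2 of 5, and residues 90 and 93 of Txn2, in exon 3 of 4.

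The 12 libraries held between 15870155 and 20857618 counts over genes, where each gene is represented by its transcript with the most counts. Tgfbr2, the gene that encodes TβRII, was lower in TβRII-/- PT cells but remained counted there. Its normalized counts were 6358 to 6782 against 7562 to 9248 in untreated cells and 7116 to 7311 against 13275 to 13918 with H2O2. These counts cover the whole transcript of 8559 bp, so they cannot show whether the floxed part was lost. The study's methods state that the deletion was verified by immunoblotting and RNAseq. Of 10 proximal tubule markers 4 passed 100 normalized counts in a group (Lrp2, Aqp1, Cdh6 and Cubn), while Slc34a1, Hnf4a and Miox were at or near 0 in all groups. The summed level of that list ran from 35855 to 44731 in untreated TβRII flox/flox libraries and from 18437 to 19483 in untreated TβRII-/- libraries. The summed level of 5 general nephron markers ran the opposite way, from 19123 to 21779.9 in untreated TβRII flox/flox and from 32698 to 35813 in untreated TβRII-/- libraries. The largest part of that sum was Cdh16 (means of 10306 ± 1082 and 21439 ± 1403), while Pax2 did not follow it (5105 ± 450.3 and 4695 ± 225, with overlapping libraries), and Epcam and Cdh1 were near 0 in TβRII flox/flox PT cells while their means were 664 ± 57.3 and 1111 ± 62.8 in untreated TβRII-/- PT cells. These differences run with genotype beside every genotype comparison given here, and their part in it was not tested. With H2O2 the proximal tubule sums were 46635 to 50791 in TβRII flox/flox and 20159 to 21749 in TβRII-/- libraries. The fibroblast, podocyte, and loop and distal tubule lists summed to under 100 normalized counts in every library. The endothelial list was carried by Kdr, with means of 129 ± 4.60 and 507 ± 66.8 in untreated TβRII flox/flox and TβRII-/- PT cells and 21.6 ± 0.847 and 48.1 ± 10.7 with H2O2, and its defining markers Pecam1 and Cdh5 were at or near 0. The leukocyte list summed to between 129 and 278 and was carried by Cd68, while Adgre1 was at 0 in all libraries.

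Gpx2 (chr12:76792335-76795554, GRCm38.p6) and Gpx7 (chr4:108400217-108406713) had 0 counts in all 12 libraries, which allows up to 3 counts in a library, at depths of 15870155 counts and more. Gpx2 is best known from the gut epithelium and Gpx7 from the endoplasmic reticulum. Gpx5 and Gpx6, the remaining glutathione peroxidases of the mouse, also had 0 counts in all 12 libraries. The remaining 8 of the 10 genes passed the filter on low counts and were among the 12971 genes tested. Normalized counts below are scaled to a library of 17351835 counts after TMM normalization, which corrects for differences in library composition.

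Levels of different genes were compared only as normalized counts per kb of transcript. Over all 12 libraries the mean level per kb was highest for Gpx3 at 5672, followed by Gpx4 at 4025, Gpx1 at 2680, Txn1 at 1795, Gsr at 1090, Txn2 at 961, Gpx8 at 461 and Gss at 279.9. The order changed with group. In untreated TβRII flox/flox PT cells the libraries of the leading 3 overlapped, with Gpx3 at 3505 to 4852, Gpx1 at 3359 to 3988 and Gpx4 at 2970.0 to 3615 per kb. In untreated TβRII-/- PT cells Gpx3 stood apart at 10326 to 11032 per kb, with Gpx4 next at 4451 to 5038. After H2O2, Gpx4 at 3102 to 3209 per kb lay above Gpx3 at 2476 to 2766 in TβRII flox/flox PT cells, and the libraries of Gpx3 (4887 to 5343) and Gpx4 (4612 to 4912) overlapped in TβRII-/- PT cells. Gss was the lowest in TβRII flox/flox PT cells and Gpx8 the lowest in TβRII-/- PT cells, both without and with H2O2.

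**Figure D1:**
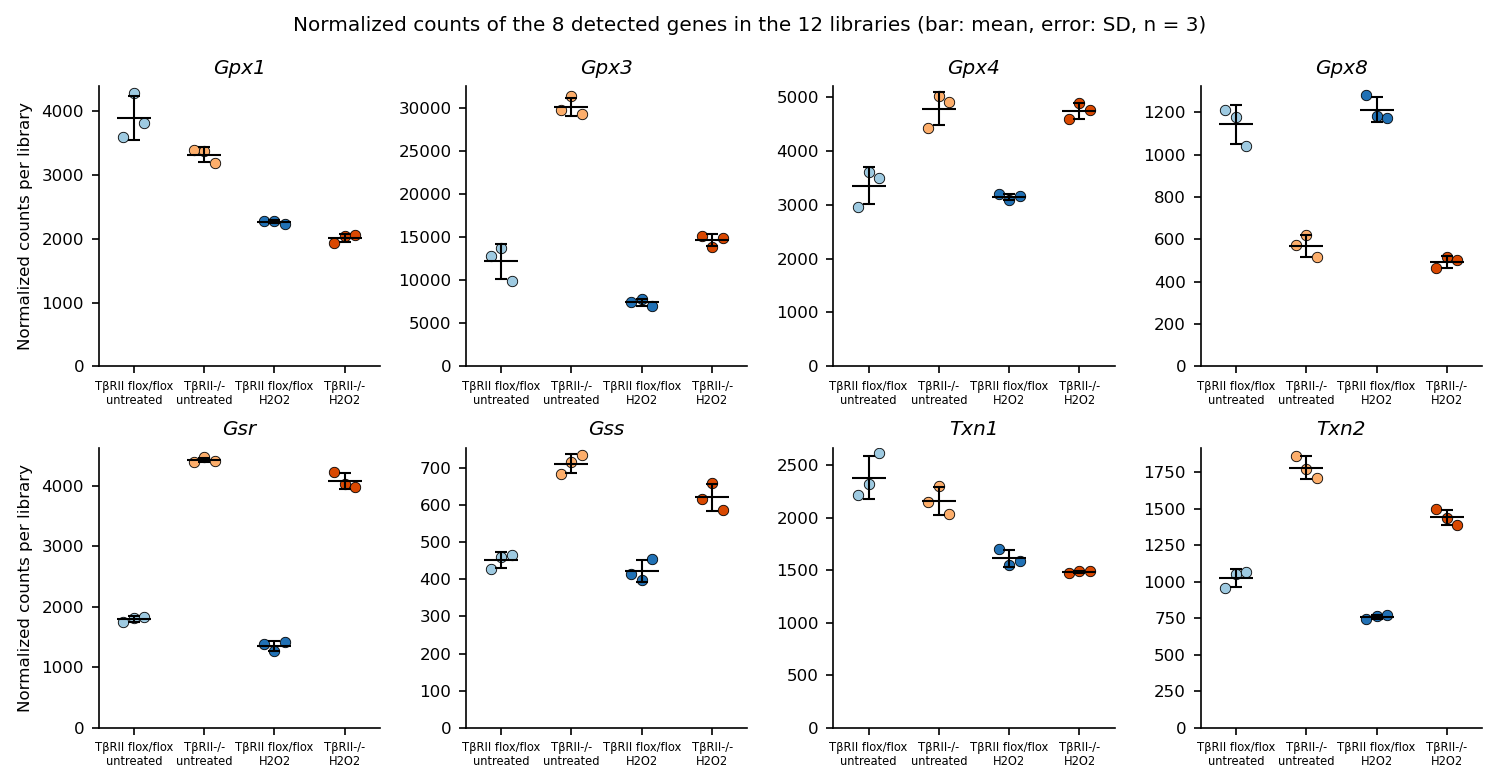
Normalized counts (linear axis from 0) of the 8 detected genes in each of the 12 libraries by group, where points are libraries and bars show mean and SD of 3. Gsr and Txn2 sit higher in every TβRII-/- library than in any TβRII flox/flox library, Gpx8 sits lower, and Gpx1 and Txn1 sit lower in every H2O2 library than in any untreated one.

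The first comparison asked how the genes differ between genotypes without H2O2. Gpx3, Gpx4, Gsr, Gss and Txn2 were higher in untreated TβRII-/- PT cells, Gpx1 and Gpx8 were lower, and Txn1 did not pass the test. As in any bulk sample, a change in the share of cells that express a gene and a change in RNA per cell cannot be told apart. The genes that passed were 7 of the 8 tested genes, against 64.7% of all genes tested in the same comparison. With a fold change of at least 1.5 the count was 5 of 8 (4 higher, 1 lower) against 28.0% of all genes. The median log2 fold change of the 8 was 0.59 and that of all genes tested was 0.0085. The libraries of the genotypes did not overlap for 7 of the 8, against 65.3% of all genes.

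Among the peroxidases, Gpx3 (chr11:54902854-54910387), the secreted enzyme, had normalized counts of 12818, 13794 and 9966 in untreated TβRII flox/flox libraries and 29808, 31363 and 29356 in untreated TβRII-/- libraries. Every TβRII-/- library lay above every TβRII flox/flox library, and the third TβRII flox/flox library was the lowest of all 6. The log2 fold change was 1.31 (SE 0.082, adjusted p = 2.75e-15), a fold of 2.47. Gpx8 (chr13:113042757-113046430), a membrane-bound enzyme of the endoplasmic reticulum that carries cysteine in place of selenocysteine, was the opposite case, with 1209.8, 1178 and 1039 in TβRII flox/flox libraries and 573, 619.6 and 516 in TβRII-/- libraries. The groups did not overlap and the log2 fold change was -1.004 (SE 0.075, adjusted p = 2.10e-13), so the TβRII-/- level was 0.499 of the TβRII flox/flox level.

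Gpx4 (chr10:80047166-80056439), which reduces lipid peroxides in membranes and is the known brake on ferroptosis, had 2955, 3597 and 3497 in TβRII flox/flox libraries and 4429, 5013 and 4902 in TβRII-/- libraries. All TβRII-/- libraries were higher, with a log2 fold change of 0.51 (SE 0.066, adjusted p = 4.65e-08). Gpx1 (chr9:108339080-108340342), the abundant peroxidase of cytosol and mitochondria, had 3601, 4275 and 3812 against 3397, 3379.8 and 3180.0. All 3 TβRII-/- libraries were lower than the lowest TβRII flox/flox library, and the log2 fold change of -0.23 (SE 0.061, adjusted p = 0.00135) was the smallest of those that passed. Scaled by library totals without TMM, the Gpx1 value was -0.14 and its adjusted p 0.051. Under that scaling the median log2 fold change of all genes between genotypes was 0.10 in untreated cells and 0.17 with H2O2, compared with 0.0085 and 0.018 under TMM, so genotype differences are stated relative to the TMM scaling.

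Of the enzymes that supply reduced glutathione, Gsr (chr8:33653238-33698162) had 1747, 1810.5 and 1835 in TβRII flox/flox libraries and 4394, 4469 and 4408 in TβRII-/- libraries. The means were 1798 ± 45.1 and 4424 ± 39.7 (mean ± SD, n = 3 each), and every TβRII-/- library was higher. The log2 fold change of 1.30 (SE 0.058, adjusted p = 3.95e-19) had the smallest adjusted p of the 8 genes. Gss (chr2:155563181-155592810) had 426, 461 and 466 in TβRII flox/flox libraries and 683, 715 and 734 in TβRII-/- libraries. The groups did not overlap, with a log2 fold change of 0.66 (SE 0.075, adjusted p = 3.61e-09).

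The thioredoxins parted. Txn2 (chr15:77915051-77928994), the mitochondrial form, had 958, 1053 and 1068 in TβRII flox/flox libraries and 1862, 1769.8 and 1707 in TβRII-/- libraries. All TβRII-/- libraries were higher and the log2 fold change was 0.79 (SE 0.061, adjusted p = 4.99e-13). Txn1 (chr4:57943373-57956411), the cytosolic form, had 2211, 2320.2 and 2611 against 2151, 2300.3 and 2031, and the genotypes overlapped. Its log2 fold change was -0.14 (SE 0.063, adjusted p = 0.0531), with a 95% confidence interval from -0.27 to -0.011. The Txn1 value lay close to the threshold, with an adjusted p of 0.0489 without a filter on low counts and between 0.0106 and 0.277 without 1 library.

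**Figure D2:**
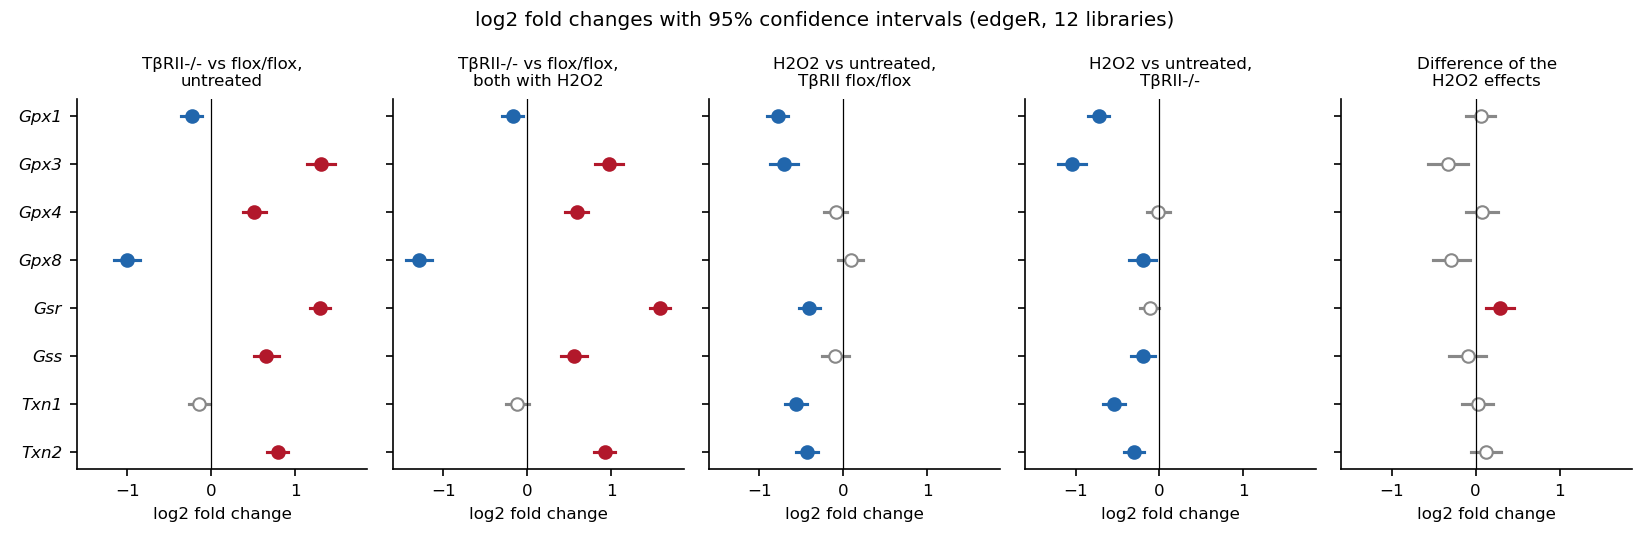
log2 fold changes of the 8 genes (points) with 95% confidence intervals (lines) in 5 comparisons, fitted with edgeR on 12 libraries, where filled points passed an adjusted p of 0.05 and red is higher, blue lower. Gsr reaches 1.30 and 1.59 and Gpx8 -1.004 and -1.29 between genotypes, while no point passes above 0 in the 2 panels of H2O2 against untreated cells.

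The same genotype question was asked with H2O2. The genes that passed were again 7 of 8, with Gpx3, Gpx4, Gsr, Gss and Txn2 higher and Gpx1 and Gpx8 lower in TβRII-/- PT cells, against 66.4% of all genes tested. With a fold change of at least 1.5 the count was 5 of 8 against 30.7%, and the median log2 fold change was 0.58 against 0.018. Libraries of the genotypes did not overlap for any of the 8, against 71.0% of all genes.

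With H2O2, Gsr had 1384, 1267 and 1423 in TβRII flox/flox libraries and 4218, 4028 and 3976 in TβRII-/- libraries. All TβRII-/- libraries were higher, and the log2 fold change of 1.59 (SE 0.059, adjusted p = 2.79e-21) was a fold of 3.0. Gpx8 had 1282, 1181 and 1174 against 463, 517 and 503. Every TβRII-/- library was lower, and the log2 fold change was -1.29 (SE 0.075, adjusted p = 3.26e-16), leaving 0.408 of the TβRII flox/flox level. Gpx3 had 7441, 7865 and 7040.1 against 15191, 13893 and 14963, with no overlap and a log2 fold change of 0.98 (SE 0.082, adjusted p = 3.43e-12). These are the 3 genes with the widest genotype differences in either medium.

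Txn2 had 744, 766 and 770.1 in TβRII flox/flox libraries with H2O2 and 1496, 1434 and 1390.2 in TβRII-/- libraries. Its libraries were tight within each genotype, and the log2 fold change was 0.92 (SE 0.063, adjusted p = 2.20e-14). Gpx4 had 3193, 3086 and 3168 against 4589, 4887 and 4748 and a log2 fold change of 0.59 (SE 0.066, adjusted p = 2.49e-09). The TβRII-/- libraries of both genes were higher throughout. Gss had 413, 397 and 455 against 617, 659 and 586, with a log2 fold change of 0.56 (SE 0.076, adjusted p = 9.00e-08) and no overlap.

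Gpx1 had 2279, 2285 and 2236 in TβRII flox/flox libraries and 1933, 2045 and 2054 in TβRII-/- libraries. The TβRII-/- libraries were lower, with a log2 fold change of -0.17 (SE 0.063, adjusted p = 0.0159). That call was lost with library totals without TMM (log2 fold change -0.023, adjusted p = 0.758) and without replicate 1 of TβRII-/- PT cells with H2O2 (-0.14, adjusted p = 0.0861). Txn1 had 1698, 1553 and 1585 against 1475, 1495 and 1489. The libraries did not overlap, but the log2 fold change of -0.12 (SE 0.065, adjusted p = 0.113) did not pass. It passed with only the groups compared (adjusted p = 0.0315), without the untreated TβRII flox/flox replicate 1, 2 or 3 (0.0301, 0.0444 and 0.0206) and without replicate 2 of H2O2-treated TβRII flox/flox PT cells (0.0404), and with library totals without TMM the log2 fold change was 0.032 (adjusted p = 0.691).

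The next comparisons asked how each genotype differed after H2O2 from its untreated cells. In TβRII flox/flox PT cells Gpx1, Gpx3, Gsr, Txn1 and Txn2 fell, and none of the 8 rose. The 5 of 8 stand against 41.6% of all genes tested, made up of 20.5% that were lower and 21.0% that were higher. In TβRII-/- PT cells Gpx1, Gpx3, Gpx8, Gss, Txn1 and Txn2 fell and none rose, which is 6 of 8 against 39.6% of all genes, 19.1% lower and 20.5% higher. A fold change of at least 1.5 was met by 2 of 8, Gpx1 and Gpx3, in each genotype, against 8.24% of all genes in TβRII flox/flox and 8.33% in TβRII-/- PT cells. Untreated and treated libraries did not overlap for 5 of 8 in TβRII flox/flox, against 47.4% of all genes, and for 6 of 8 in TβRII-/- PT cells, against 52.1%. The median log2 fold change of the 8 was -0.42 in TβRII flox/flox and -0.25 in TβRII-/- PT cells, against 0.0068 and 0.018 over all genes.

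Gpx1 fell in both genotypes (normalized counts, mean ± SD, n = 3 each), from 3896 ± 345 to 2266 ± 26.7 in the TβRII flox/flox libraries and from 3319 ± 120.5 to 2011 ± 67.6 in the TβRII-/- libraries. No library with H2O2 reached the lowest untreated one. The log2 fold changes were -0.78 (SE 0.062, adjusted p = 8.05e-12) and -0.72 (SE 0.062, adjusted p = 6.82e-11). Gpx3 fell from 12193 ± 1989 to 7449 ± 413 and from 30176 ± 1053 to 14682 ± 693, with log2 fold changes of -0.71 (SE 0.082, adjusted p = 2.67e-08) and -1.04 (SE 0.082, adjusted p = 8.80e-12). The TβRII-/- libraries with H2O2 thus stood at 15191, 13893 and 14963, of which each lay above all untreated TβRII flox/flox libraries. The margin was narrow, with 13893 for the lowest of them against 13794 for the highest untreated TβRII flox/flox library.

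Gpx4 did not pass in either genotype. Its mean was 3349.6 ± 345 before and 3149 ± 55.5 after H2O2 in the TβRII flox/flox libraries, 4781 ± 310.4 before and 4741 ± 149 after in the TβRII-/- libraries, and the libraries overlapped in both. The log2 fold changes were -0.089 (adjusted p = 0.301) with a 95% confidence interval from -0.23 to 0.048, and -0.012 (adjusted p = 0.901) with an interval from -0.15 to 0.12. When the first untreated TβRII flox/flox library was left out, the Gpx4 value in that genotype was -0.16 with an adjusted p of 0.0412. The cysteine-bearing Gpx8 had a log2 fold change of 0.086 (adjusted p = 0.347) in TβRII flox/flox PT cells and fell by 0.20 (adjusted p = 0.0408) in TβRII-/- PT cells, where untreated and treated libraries overlapped. That Gpx8 call was lost with DESeq2, where the adjusted p was 0.0513, with sums over transcripts (0.0597), with library totals without TMM (0.107), and when any of 4 libraries was left out, replicates 1 and 2 of untreated and replicates 1 and 3 of H2O2-treated TβRII-/- PT cells, where it reached 0.238.

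Gsr fell from 1798 ± 45.1 to 1358 ± 81.1 in TβRII flox/flox PT cells, with a log2 fold change of -0.40 (SE 0.060, adjusted p = 2.69e-06). In TβRII-/- PT cells it went from 4424 ± 39.7 to 4074 ± 128, where the libraries did not overlap but the log2 fold change of -0.12 (SE 0.056, adjusted p = 0.0921) did not pass. The value in TβRII-/- PT cells passed with sums over transcripts (adjusted p = 0.0408), with only the groups compared (0.0205), without the untreated TβRII flox/flox replicate 1 or 3 (0.0412 and 0.0304) and without replicate 2 of H2O2-treated TβRII flox/flox PT cells (0.0485). Gss had a log2 fold change of -0.098 (adjusted p = 0.336) in TβRII flox/flox PT cells, with overlapping libraries, and of -0.19 (adjusted p = 0.0294) in TβRII-/- PT cells, where every treated library was lower than every untreated one. The call of Gss was lost with library totals without TMM (adjusted p = 0.106) and when any of 4 libraries was left out, replicates 2 and 3 of untreated and replicates 1 and 3 of H2O2-treated TβRII-/- PT cells, where it reached 0.137.

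Both thioredoxins fell in both genotypes. Txn1 went from 2381 ± 207 to 1612 ± 76.6 and from 2161 ± 135 to 1486 ± 10.4 normalized counts, with log2 fold changes of -0.56 (SE 0.064, adjusted p = 2.30e-08) and -0.54 (SE 0.064, adjusted p = 5.04e-08). Txn2 went from 1026 ± 59.3 to 760.1 ± 14.3 and from 1779.7 ± 78.3 to 1440.2 ± 53.3, with log2 fold changes of -0.43 (SE 0.065, adjusted p = 2.83e-06) and -0.30 (SE 0.059, adjusted p = 1.26e-04). No treated library of either gene overlapped the untreated libraries of its genotype. Even so, the treated TβRII-/- libraries of Txn2 remained above all untreated TβRII flox/flox libraries.

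Whether the response to H2O2 differed between genotypes was tested as an interaction, the log2 fold change with H2O2 in TβRII-/- PT cells minus that in TβRII flox/flox PT cells. It passed for 1 of 8 genes with a positive difference, against 10.2% of all genes tested, 3.90% with a positive and 6.28% with a negative difference. The gene was Gsr, with a difference of 0.29 (SE 0.082, adjusted p = 0.0228) between a log2 fold change of -0.12 in TβRII-/- and -0.40 in TβRII flox/flox PT cells. The Gsr call was lost with sums over transcripts, where the difference was 0.21 and the adjusted p 0.13, and without any of 4 libraries (replicate 2 of untreated TβRII flox/flox, replicate 1 of untreated TβRII-/-, replicate 2 of H2O2-treated TβRII flox/flox and replicate 1 of H2O2-treated TβRII-/- PT cells), with adjusted p from 0.0501 to 0.128. Gpx3 had a difference of -0.33 (SE 0.11, adjusted p = 0.0632) and Gpx8 of -0.29 (SE 0.11, adjusted p = 0.0796), neither past the threshold. Gpx3 passed with DESeq2 (adjusted p = 0.038), without a filter on low counts (0.0127), and without the untreated TβRII flox/flox replicate 1 (0.0158) or 2 (0.0136). Gpx8 passed without replicate 1 of untreated TβRII flox/flox (0.0221) or replicate 3 of untreated TβRII-/- PT cells (0.0351). None of the 8 both passed and differed by a fold of at least 1.5, against 2.36% of all genes. The other 5 differences lay between -0.096 (Gss) and 0.13 (Txn2), with 95% confidence intervals that included 0.

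Because the peroxidases moved differently, the make-up of the Gpx mRNA was described as shares of normalized counts per kb summed over the family. In untreated TβRII flox/flox PT cells Gpx3 held 35.9 ± 4.0%, Gpx1 30.5 ± 1.35%, Gpx4 28.3 ± 2.92% and Gpx8 5.19 ± 0.434% (mean ± SD, n = 3). In untreated TβRII-/- PT cells Gpx3 held 56.4 ± 0.559% and Gpx1 16.5 ± 0.653%, and Gpx8 held 1.63 ± 0.110%. With H2O2 the share of Gpx4 was 37.0 ± 1.04% in TβRII flox/flox and 39.5 ± 1.34% in TβRII-/- PT cells, compared with 28.3 ± 2.92% and 25.5 ± 1.25% before, while its own level did not pass the test. The share of Gpx3 with H2O2 was 30.6 ± 1.27% and 42.8 ± 1.88%. These shares rest on the transcript chosen for each gene. Summed over all transcripts, on which a read can be counted more than once, Gpx4 held the largest share in every group (49.2%, 50.6%, 59.5% and 65.1%) and Gpx3 held 16.3%, 29.1%, 12.9% and 18.5%, in the order untreated TβRII flox/flox, untreated TβRII-/-, then both with H2O2. These sums were still divided by the length of the chosen transcript. Gpx4 had 7 transcripts with counts, Gpx1 4, Gpx3 3 and Gpx8 2. The summed shares thus grow with the number of transcripts and are no second estimate of the make-up.

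**Figure D3:**
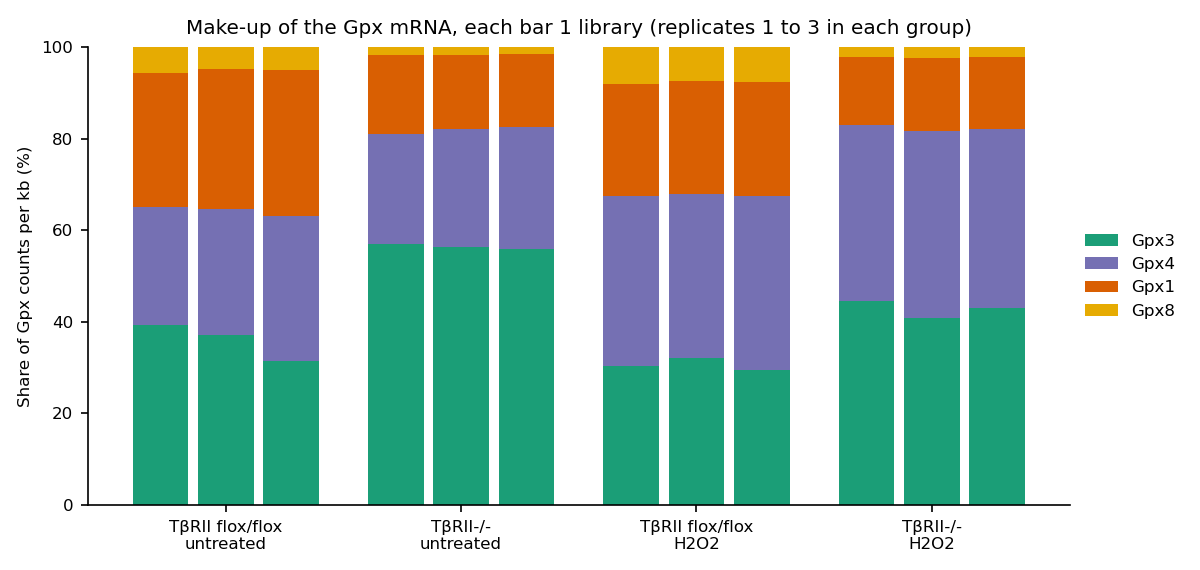
Share (%) of each peroxidase in the summed normalized counts per kb of Gpx1, Gpx3, Gpx4 and Gpx8, with 1 bar for each library and 3 bars for each group. The Gpx3 share is largest in untreated TβRII-/- libraries (56.4 ± 0.559%), the Gpx4 share is larger with H2O2 in both genotypes, and the Gpx8 share is smaller in TβRII-/- libraries.

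Other transcripts of the same genes were compared with those chosen. Of Gpx3 all 3 transcripts with counts had log2 ratios between untreated genotypes from 1.31 to 1.37, of Gsr all 3 from 1.30 to 1.52, of Txn2 all 7 from 0.69 to 0.87, and of Gpx8 both from -1.004 to -0.96. Counts of transcripts of a gene share reads, so these ratios are no independent checks. Gpx4 has processed pseudogenes of 95.1% (Gpx4-ps1) and 99.6% (Gpx4-ps2) identity over 510 and 512 bp, and Txn1 has one of 95.8% (Txn-ps1) over 309 bp. How reads shared with such copies were counted is not given in the sources used here, so the levels of Gpx4 and Txn1 carry that uncertainty. The Gpx3 transcript overlaps Tnip1 on the opposite strand over 2507 of its 2843 bp. The most-counted Tnip1 transcript had 12916 counts in all libraries together, against 195677 on the Gpx3 transcript. The Gss transcript overlaps Acss2 over 942 of 1968 bp, with 6649 counts on Acss2 and 6694 on Gss, and Gpx1 overlaps the antisense gene Gm57050 over 863 of 1072 bp. The library kit keeps strand, but the strand setting of the counting is not given in the sources used here.

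Since the genotypes are 2 cell lines, the genotype difference of each gene was set beside that of its chromosomal neighbours, the 12 tested genes on either side. The neighbours of Gsr had a median log2 fold change of -0.15 between untreated genotypes against 1.30 for Gsr itself, those of Gpx3 0.16 against 1.31, those of Gpx4 0.018 against 0.51 and those of Gpx8 -0.21 against -1.004. For Txn2 the neighbours were at 0.48 against 0.79, and the median of chromosome 15 was 0.36. For Gss they were at 0.27 against 0.66, with a median of 0.30 over chromosome 2. The neighbours of Txn1 were at -0.26, lower than Txn1 itself at -0.14. Of the 24 neighbours, 19 shared the sign of Gpx8, 18 each those of Txn2 and Gss, and 16 that of Txn1, and the part of such shifts in the genes' own values was not tested.

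**Figure D4:**
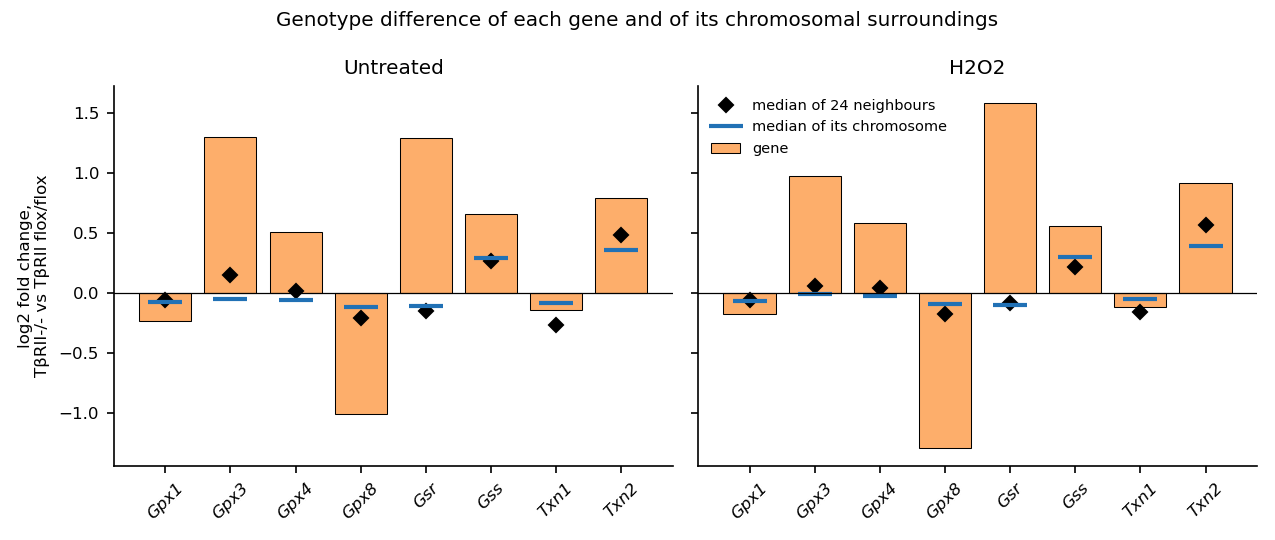
log2 fold change between genotypes of each gene (bars from 0), with the median of its 24 neighbouring tested genes (diamonds) and of its chromosome (blue lines), for untreated (left) and H2O2-treated (right) cells. Diamonds lie between -0.15 and 0.16 beside Gsr, Gpx3 and Gpx4 and rise to 0.48 and 0.57 beside Txn2.

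The other genes of both systems were followed in 5 lists. Without H2O2 and between genotypes, genes that supply glutathione or its parts were higher in TβRII-/- PT cells for 7 and lower for 3 of 11 tested. Partners of the thioredoxins, a list in which all peroxiredoxins were placed, were higher for 9 and lower for 2 of 16. Glutaredoxins were higher for 1 and lower for 0 of 4. Genes of NADPH supply and the pentose phosphate pathway were higher for 7 and lower for 1 of 8. Genes of selenoprotein synthesis were higher for 5 and lower for 2 of 9. Over all genes, 33.3% were higher and 31.4% lower. The list medians were 0.40, 0.32, 0.082, 0.50 and 0.22 in that order, against 0.0085 over all genes. With H2O2 the genotypes differed for 5 higher and 3 lower, 11 and 2, 1 and 0, 7 and 1, and 4 and 1 genes of the same lists, against 35.1% and 31.3% of all genes. The list medians between genotypes with H2O2 were 0.070, 0.28, 0.0080, 0.66 and 0.13, against 0.018 over all genes.

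Values in parentheses here are log2 fold changes with adjusted p, and those before them are normalized counts of untreated TβRII flox/flox and TβRII-/- libraries. The enzyme that recharges Txn1, thioredoxin reductase Txnrd1, was counted at 4791 ± 268 in untreated TβRII flox/flox and at 11681 ± 207 in untreated TβRII-/- libraries (1.29, adjusted p = 2.38e-18), while Txn1 did not pass. Srxn1, the sulfiredoxin that repairs overoxidized peroxiredoxins, was at 772 ± 33.7 and 3548 ± 97.4 (2.20, adjusted p = 7.64e-25), and Txnrd3 at 247 ± 31.6 and 612 ± 29.8 (1.31, adjusted p = 5.80e-14). Genes singled out after their values were seen include the peroxiredoxins, most of which, but not Prdx6, are served by thioredoxins. Among the peroxiredoxins, Prdx1, Prdx3 and Prdx6 were higher in TβRII-/- PT cells by log2 fold changes of 0.32, 0.33 and 0.39. Prdx4, that of the endoplasmic reticulum, was lower at -0.37, while Prdx2 (-0.027, adjusted p = 0.688) and Prdx5 (0.084, adjusted p = 0.249) did not pass.

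In glutathione supply, Gclc, the catalytic subunit of the rate-limiting enzyme upstream of Gss, was at 8160.1 ± 363 and 13106 ± 236 (0.68, adjusted p = 5.73e-12), its modifier subunit Gclm, also picked after its value was seen, had a log2 fold change of 0.68, and Oplah, which returns 5-oxoproline to glutamate, was at 45.7 ± 2.63 and 481 ± 17.9 (3.39, adjusted p = 1.40e-21). Ggt1, the brush-border enzyme that cleaves extracellular glutathione and also a proximal tubule marker, was lower at 75.8 ± 15.1 and 7.61 ± 1.62 (-3.30, adjusted p = 4.59e-11). The other lower genes of that list, picked after their values were seen, were Slc3a2 (-0.61, adjusted p = 4.58e-10) and Ggct (-0.59, adjusted p = 0.0012). Glrx, the cytosolic glutaredoxin, had a log2 fold change of 1.15 (adjusted p = 2.24e-10), whereas Glrx5 (0.18, adjusted p = 0.0563) and Glrx2 (-0.076, adjusted p = 0.596) did not pass. The NADPH that Gsr and the thioredoxin reductases use comes in part from the pentose phosphate pathway, of which G6pdx (0.89, adjusted p = 1.77e-13), Pgd (0.74, adjusted p = 2.54e-13) and Tkt (0.70, adjusted p = 1.63e-11) were all higher in TβRII-/- PT cells. Of the selenium genes, Selenop, the secreted selenium carrier, was lower at 529 ± 41.9 and 83.4 ± 3.43 (-2.66, adjusted p = 1.27e-20), and Sephs2, which makes the selenium donor, and Scly, which recycles selenocysteine, were higher with log2 fold changes of 0.73 (adjusted p = 3.19e-11) and 0.73 (adjusted p = 8.71e-10).

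With H2O2 against no treatment the lists counted more lower than higher genes except selenoprotein synthesis. In TβRII flox/flox PT cells glutathione supply had 1 higher and 4 lower of 11, thioredoxin partners 2 and 9 of 16, glutaredoxins 0 and 3 of 4, NADPH supply 1 and 5 of 8, and selenoprotein synthesis 1 and 0 of 9, where 21.0% of all genes were higher and 20.5% lower. In TβRII-/- PT cells the counts were 2 and 5, 1 and 10, 0 and 3, 2 and 4, and 1 and 1 of the same lists, where 20.5% of all genes were higher and 19.1% lower. Gclc fell in both, with log2 fold changes of -1.63 (adjusted p = 1.32e-19) and -1.47 (adjusted p = 4.95e-19), as did Glrx (-0.92, adjusted p = 5.00e-06 and -0.86, adjusted p = 1.75e-07) and Txnrd1 (-0.37, adjusted p = 1.30e-05 and -0.47, adjusted p = 2.55e-07). Txnip, which binds and inhibits thioredoxin and was chosen after its values were seen, rose in both (0.45, adjusted p = 2.55e-06 and 0.57, adjusted p = 1.80e-08). In the 5 lists the interaction passed for 6 of 48 tested genes, a share near the 10.2% of all genes. The 6 are named for having passed, and all but Srxn1 and Selenop were thus chosen after their values were seen. The values were negative for Srxn1 (-0.38, adjusted p = 0.00501), Selenop (-0.51, adjusted p = 0.044), the cystine transporter subunit Slc7a11 (-0.47, adjusted p = 0.0273) and the selenoprotein P receptor Lrp8 (-0.42, adjusted p = 0.00487), and positive for Prdx2 (0.26, adjusted p = 0.0293) and malic enzyme Me1 (0.35, adjusted p = 0.0329).

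**Figure D5:**
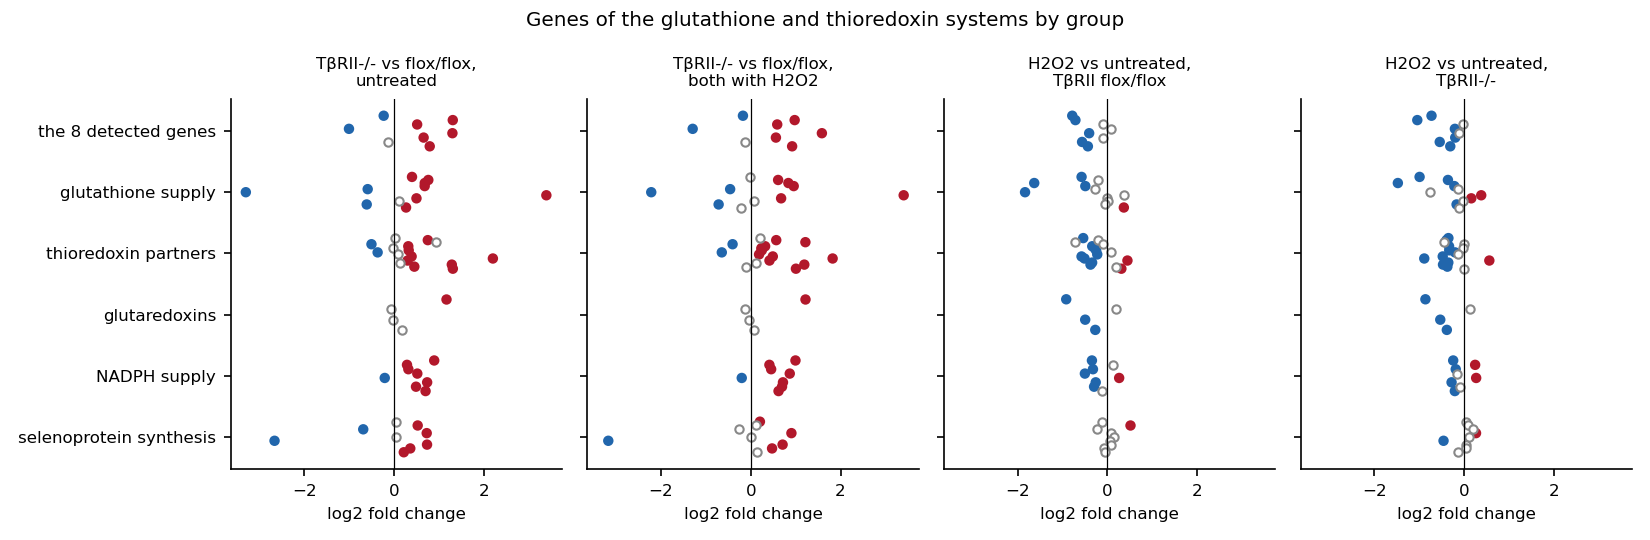
log2 fold changes of the 8 detected genes and of the genes in 5 lists in 4 comparisons, where each point is a gene, filled points passed an adjusted p of 0.05, and red is higher, blue lower. Points spread to both sides between genotypes, from -3.30 (Ggt1) to 3.39 (Oplah) in untreated cells, and lie mostly below 0 with H2O2, down to -1.83 for Ggt1 in TβRII flox/flox PT cells.

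The genes whose pattern over the 12 libraries was most like that of Gpx3, by Pearson's r of log2 normalized counts, were Gm20538 (0.986), Mknk2 (0.985) and Acta2 (0.984), and for Gsr they were Lgals3 (0.998), Tmem252 (0.996) and Glul (0.996). The 12 libraries fall into 4 groups and share their scaling, and 432 of 12970 genes had an r over 0.9 with Gpx3 and 1688 with Gsr. Promoter windows of 300 bases around RefSeq gene starts (GRCm38.p6) were found for 9 of the 10 genes and searched on both strands for TGACNNNGC, the core of the antioxidant response element. The gene without a window was Gsr, whose promoter was therefore not searched. No window of the 9 held these letters, against 12.4% of 32851 windows over all genes, which says only that the letters are not in these windows.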

How the data were processed

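RNA was sequenced from 12 libraries in 4 groups of 3, with groups and replicate numbers taken from the sample labels. The authors aligned reads with STAR to GRCm38.p6 (GENCODE M23), counted them with featureCounts, and deposited whole-number counts without normalization. Although the study's methods describe counts at gene level, the deposited table counts each transcript, and a read can fall on several. Of 106332 transcripts, 104820 were matched by Ensembl identifier to GENCODE M39, and the other 1512, with 1.22% to 1.28% of a library's counts, were left out. The transcript with the highest total represented each of 25514 genes, 17419 of which had several. The library totals of 15870155 to 20857618 counts limit the precision of low genes.

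Counts of all 12971 genes that passed filterByExpr were fitted with edgeR 4.0.16 under R 4.3.3 (TMM, glmQLFit and glmQLFTest, 4 group means), although the study's methods name DESeq2, which was run here as an alternative (1.42.0). The genotypes were compared without and with H2O2, treated were compared with untreated cells of each genotype, and the interaction was tested. Adjusted p-values are Benjamini-Hochberg over all genes tested, with 0.05 as the threshold. The 10 genes, the gene lists and the tests were chosen with earlier results of these data known. All 10 genes are named, and of each list the 3 genes with the smallest adjusted p between untreated genotypes; others are marked as chosen after their values were seen. A further marker of the cell type lists is not reported here. SEs were derived from the fold change and F statistic, and 95% confidence intervals from the same fit. On simulated counts, edgeR found 182 of 200 genes changed by a fold of 2 between untreated genotypes and 170 of 200 for the interaction, with 16 and 3 false calls among 12752 genes each. The simulation changed only these 200 genes, whereas 64.7% of all genes tested passed between untreated genotypes in the data. These rates need not hold at that share. Replicates differed by a chi-square of 3.64 to 12.7 per gene, so no pair differed by as little as sampling noise. Alternatives were DESeq2, its size factors, no filter on low counts, at least 10 counts in every library, the replicate number as a block, only the groups compared, sums over transcripts, and leaving out each library. Library totals without TMM were added after the data were seen. Coordinates are from an NCBI table of GRCm38.p6. Near-identical copies were searched with BLAST 2.17.0+ in GENCODE M39.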

Additional observations from a re-analysis of the deposited data

Results flagged for a closer look

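The response of Gsr to H2O2 differed between genotypes in a test of the difference itself. The log2 fold change with H2O2 was -0.40 in TβRII flox/flox and -0.12 in TβRII-/- PT cells, and the difference was 0.29 (SE 0.082, adjusted p = 0.0228) by edgeR, with a 95% confidence interval from 0.12 to 0.45. In TβRII flox/flox PT cells the libraries moved from 1747, 1810.5 and 1835 to 1384, 1267 and 1423 normalized counts, and in TβRII-/- PT cells from 4394, 4469 and 4408 to 4218, 4028 and 3976. The call was lost with sums over transcripts and without any of 4 libraries.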

How the results depend on the processing

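Between genotypes and with H2O2 in either genotype, the number of the 8 genes called stayed within 1.5 times the reported number under every alternative run: 6 to 8 between untreated genotypes, 6 to 8 with H2O2, 5 to 6 for H2O2 in TβRII flox/flox and 4 to 7 in TβRII-/- PT cells. The interaction count of 1 became 2 with DESeq2, 2 when low counts were not filtered and 0 with sums over transcripts, and lay between 0 and 3 when 1 library was left out. Signs turned only for values that had not passed: the Txn1 interaction was -0.0041 with sums over transcripts, and with library totals without TMM Txn1 between genotypes with H2O2 was 0.032 and Gpx4 with H2O2 in TβRII-/- PT cells was 0.034. With 1 library left out, Gpx4 with H2O2 in TβRII-/- PT cells ran from -0.065 to 0.023, and the interactions ran from -0.037 to 0.088 for Gpx1, from -0.0016 to 0.13 for Gpx4 and from -0.072 to 0.071 for Txn1. The cause of these changes was not tested. With only the groups compared, the interaction could not be fitted.

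Replicate numbers were shared by the groups. Deviations of same-numbered libraries from their group means correlated between -0.101 and 0.058, and those of differently numbered libraries between -0.116 and 0.118. These values showed no shared deviation by replicate number, but they cannot tell whether same-numbered libraries were handled together. With the replicate number as a block, the calls were 7, 7, 5, 6 and 1 of the 8 genes and 8287, 8523, 5235, 4981 and 1202 of all genes, in the order untreated genotypes, genotypes with H2O2, H2O2 in TβRII flox/flox, H2O2 in TβRII-/- and interaction, and no call of the 8 genes changed. With 3 libraries in a group, log2 fold changes under about 0.2 lay near the threshold, as for Txn1, Gss and Gpx8.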

Other observations

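Gpx1, Gpx3 and Gpx4 belong to 24 genes that the annotation marks as selenocysteine-bearing, of which 20 were tested. This set was chosen after the counts were seen. Of the 17 tested genes beside the 3 peroxidases, 2 rose and 5 fell with H2O2 in TβRII flox/flox PT cells, where 21.0% of all genes were higher and 20.5% lower, and 2 rose and 10 fell in TβRII-/- PT cells, where the shares were 20.5% and 19.1%. Their median log2 fold change was 0.015 and -0.28, against 0.0068 and 0.018 over all genes. Selenow, a small thioredoxin-like selenoprotein, fell from 3454 ± 320.2 to 1221 ± 27.0 normalized counts in TβRII flox/flox and from 2981 ± 131 to 1347 ± 40.6 in TβRII-/- PT cells (mean ± SD, n = 3 each), with log2 fold changes of -1.50 (adjusted p = 4.07e-18) and -1.15 (adjusted p = 2.40e-15). Selenoh, a nuclear selenoprotein, fell with log2 fold changes of -0.73 (adjusted p = 1.78e-08) and -0.71 (adjusted p = 2.49e-08), and Selenot, of the endoplasmic reticulum, with -0.28 (adjusted p = 5.60e-04) and -0.36 (adjusted p = 2.40e-05). Gpx1 (-0.78 and -0.72) and Gpx3 (-0.71 and -1.04) fell in both genotypes as well, while Gpx4 did not pass in either. The genes that rose were Selenok (0.27, adjusted p = 0.00465) and Txnrd3 (0.31, adjusted p = 0.0127) in TβRII flox/flox PT cells and Selenom (0.31, adjusted p = 0.0264) and Dio3 (0.88, adjusted p = 9.68e-05) in TβRII-/- PT cells. In TβRII flox/flox PT cells Selenom fell (-0.23, adjusted p = 0.0425). The interaction passed for 2 of the 17 with a positive difference, Selenow (0.35, adjusted p = 0.00945) and Selenom (0.54, adjusted p = 0.0137). It passed for 2 with a negative one, Selenop (-0.51, adjusted p = 0.044) and Selenoi (-0.26, adjusted p = 0.0483). The complete medium contained selenium, the sources used here do not say what the serum-free medium contained, and its part in these values was not tested.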
